A study of Mus musculus with 2 samples.

Results

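The neurogenic basic helix-loop-helix (bHLH) genes Neurog1, Neurod1, Nhlh1, Nhlh2, Hes1, Hes5 and Hes6 were placed on a map of chromatin boundaries from mature olfactory sensory neurons of the mouse. These 7 genes were chosen by name, as genes of the neuronal lineage that act before the mature neuron, and all 7 were found among the 21755 protein-coding genes annotated on chromosomes 1 to 19 and X. The map came from 1 group of 2 biological replicates, of 170000 and 220000 cells, sorted by fluorescence for expression of the odorant receptor gene Olfr1507 (MOR28). The mice were adult 129P2/OlaHsd animals of mixed sex from the MOR28-GFP line, and no treatment was given. Cells were fixed in 1% formaldehyde and digested with DpnII for in situ Hi-C, an assay that joins cut ends of neighbouring chromatin and reads each joined pair. The authors combined both replicates before calling boundaries, so no value below has a replicate error, and the number of read pairs behind a boundary is unknown. No expression was measured here, so the labelled cell type could not be checked against marker genes.

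In the olfactory epithelium, new neurons arise from basal progenitors throughout life. Proneural bHLH factors bind E-boxes as dimers with E proteins and drive cells toward the neuronal fate: Neurog1 acts in neuronal precursors, Neurod1 follows it, and Nhlh1 and Nhlh2 belong to newly formed neurons. Hes1 and Hes5 are repressors that Notch signalling switches on and that hold progenitors back from differentiation, while Hes6 lies in differentiating neurons and opposes Hes1. A boundary is a position that few contacts cross, and the stretch between consecutive boundaries, here called the interval, holds the genes and regulatory DNA that meet most often.

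No neurogenic gene lay at a boundary. A transcription start site (TSS, the 5′ end of the gene model) was counted at a boundary when it fell in the 5 kb boundary interval or within 10 kb of it. This held for 0 of the 7 genes, where 13.0% of all protein-coding genes were at a boundary, a share that comes to about 1 gene in 7. With strong boundaries alone, a part of the same list, it could only be 0 of 7 too, beside 8.39% of all protein-coding genes. Distances from the TSS to the nearest boundary midpoint ran from 30.3 kb at Neurog1 to 258 kb at Hes1, with a median of 82.4 kb, against a median of 61.1 kb over all protein-coding genes (quartiles 27.5 and 111 kb). The difference was not tested, since 7 genes of 1 combined map are not replicates. Intervals had a median of 255 kb for the 7 genes and 280 kb for all protein-coding genes (quartiles 195 and 410 kb).

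**Figure D1:**
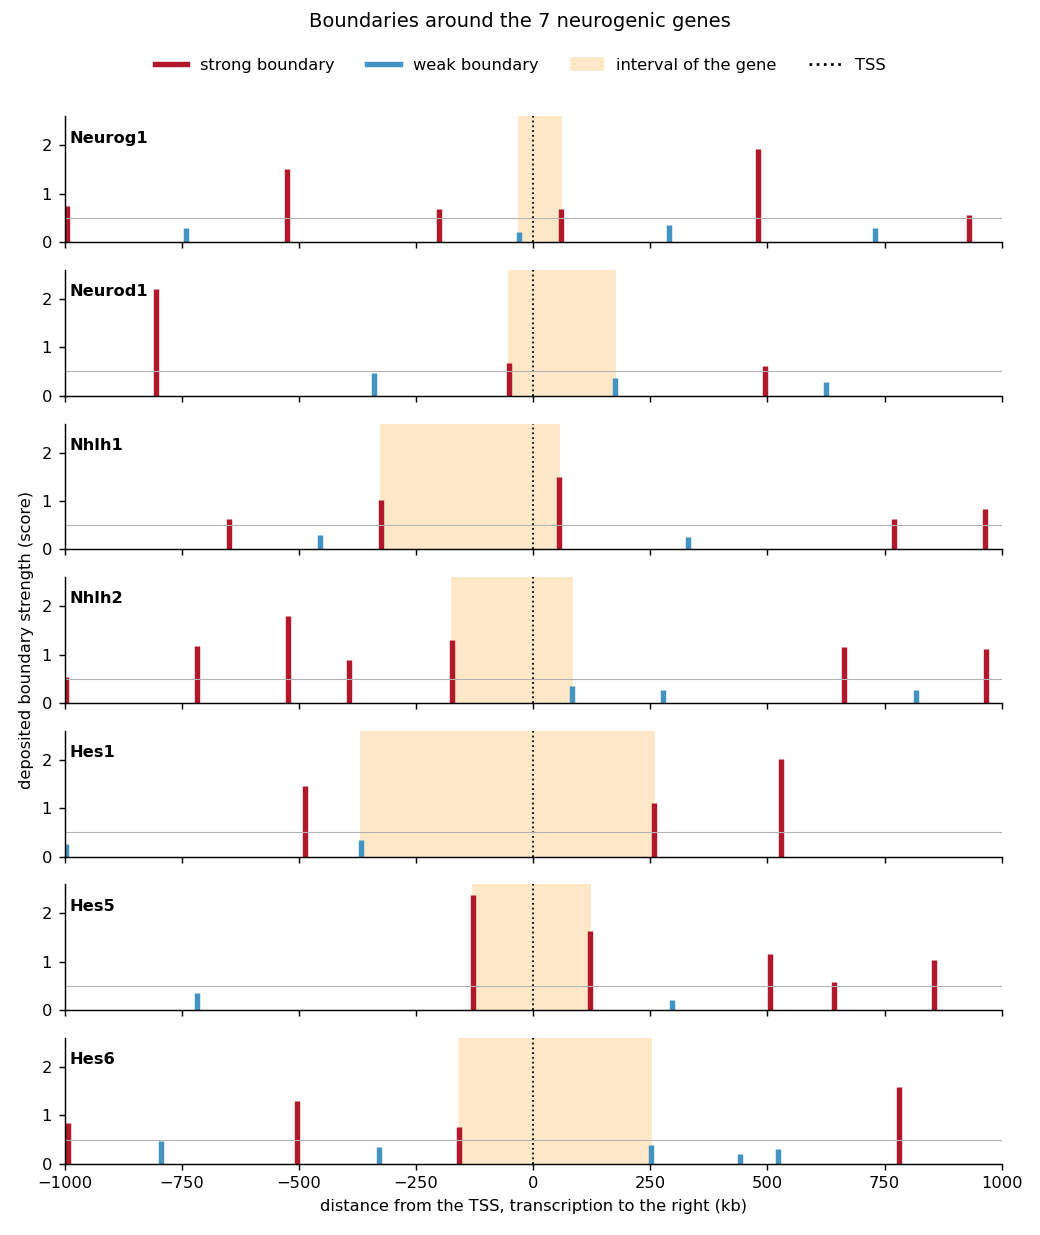
Boundaries within 1000 kb of each gene's TSS, drawn so that transcription runs to the right. The height of each line is the deposited boundary strength, a score, red lines are strong and blue lines weak boundaries, and the shaded span is the interval of the gene; no line stands at the dotted TSS of any of the 7 genes, and the interval is narrowest at Neurog1 (90 kb) and widest at Hes1 (625 kb).

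Strength is the authors' own score for each boundary, and the sources used here do not state its scale. Over the 7367 boundaries it ran from 0.20 to 4.26 with a median of 0.563, and boundaries of 0.5 or more are classed as strong. The 7 intervals had 14 different flanking boundaries, 9 strong and 5 weak. Nhlh1 and Hes5 lay between 2 strong boundaries, as did 39.4% of protein-coding genes that have a boundary on both sides. The other 5 genes had a strong boundary on one side and a weak one on the other (47.8% of such protein-coding genes), and none lay between 2 weak boundaries (12.8%). A protein-coding gene overlapped 8 of the 14, as it does 46.1% of all boundaries, and the other 6 lay over no annotated gene.

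CTCF is a factor that holds many boundaries in place and binds DNA in a set orientation. A motif of CTCF was found within 10 kb of 4 of the 14 flanking boundaries, those of Neurog1 and Hes5. None of these matches lay inside a 5 kb boundary interval itself. The search used the CTCF core motif of 12 letters on both strands, in the boundary interval and 10 kb on either side. In that window 23.9% of all boundaries have a match. By class, 3 of the 9 strong flanking boundaries had one in the window (30.2% of all strong boundaries). Of the 5 weak ones 1 did (16.2% of all weak boundaries). The 6 matches are printed because they are the sequences near these boundaries that could be compared with one another. Each line gives the motif strand 5′ to 3′ on GRCm38, with the match in capitals and 9 bases of context on each side.
Neurog1 left boundary, forward strand, chr13:56197681-56197710: gcagaactgCCAGTAGATGGCgcgctaacc
Neurog1 right boundary, reverse strand, chr13:56290173-56290202: ccgaggcagCCACTAGAGGGCgttgagctg
Neurog1 right boundary, reverse strand, chr13:56291236-56291265: ctgcctttcCCAGCAGGTGGCcttgtgccc
Hes5 left boundary, reverse strand, chr4:154825946-154825975: tcagagttgCCAGCAGAGGGCagccacact
Hes5 left boundary, forward strand, chr4:154837363-154837392: caggtctggCCACTAGAGGGCatagctgag
Hes5 right boundary, reverse strand, chr4:155094640-155094669: gattctaggCCAGCAGGGGGCagtgtccac

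The core letters CCACTAGAGGGC stood near both the right boundary of Neurog1 and the left boundary of Hes5. Most letters of the searched motif are fixed, so no likeness of the loci is read from a shared core. At Neurog1 the match on the left was on the forward strand and both matches on the right were on the reverse strand, so that all 3 pointed into the interval of the gene. The 2 right-hand matches lay in an intron of the neighbouring gene Cxcl14. At Hes5 the left boundary had 1 match on each strand, pointing away from each other at 6.54 kb to the left and 4.88 kb to the right of its midpoint. The match at its right boundary was on the reverse strand, in an intron of Morn1 and 12.2 kb beyond the midpoint. No match lay in the windows of the 10 flanking boundaries of Neurod1, Nhlh1, Nhlh2, Hes1 and Hes6, which says only that these letters are absent there. With 25 kb on either side, the right boundary of Nhlh1 and the left boundary of Nhlh2 had matches too, which made 6 of 14, beside 39.1% of all boundaries. A motif match is a description of the sequence, and binding of CTCF was not measured.

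Neurog1, the proneural gene that acts first among those described here, had an interval to itself. The gene (ENSMUSG00000048904, chromosome 13, 56250478 to 56252163, reverse strand) was the only protein-coding gene between its boundaries, as were 8.72% of protein-coding genes. Its interval of 90 kb was among the shortest, at a percentile of 0.629 among the intervals of protein-coding genes. The rest of it held 1 long intergenic noncoding RNA gene and 1 other gene annotated as noncoding or as a pseudogene. To the left, 59.7 kb from the TSS, the boundary at 56190001 to 56195000 was strong (0.679) and stood between Neurog1 and Tifab. To the right a weak boundary at 56280001 to 56285000, 30.3 kb upstream of the TSS, stood between Neurog1 and the chemokine gene Cxcl14. The strength of this right boundary was 0.205, and only 117 of the 7367 boundaries had this value or a lower one. Without weak boundaries the interval was 260 kb and held 3 more protein-coding genes.

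Neurod1, which follows Neurog1 in the lineage, lay toward the right end of an interval of 225 kb. The gene (ENSMUSG00000034701) spans chromosome 2, 79452521 to 79456751, on the reverse strand. The boundary at 79505001 to 79510000, 50.7 kb upstream of the TSS, was strong (0.677) and overlapped no gene. The left boundary, at 79280001 to 79285000, was weak (0.360) and overlapped exon sequence of Itga4, an integrin gene, 174 kb from the TSS. The only other protein-coding gene with its 5′ end in the interval was Cerkl, a gene of a ceramide kinase-like protein. The 5′ end of the Cerkl model is 34 bases upstream of the Neurod1 TSS, but it rests on 1 of 11 annotated transcript starts, and the other 10 begin at least 27.8 kb downstream of that TSS. The interval had 0.889 protein-coding genes per 100 kb and a GC content of 39.9%, the lowest GC content of the 7 intervals.

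Nhlh1 and Nhlh2 encode closely related bHLH factors of newly formed neurons, and their surroundings differed. Nhlh1 (ENSMUSG00000051251, chromosome 1, 172052292 to 172057573, reverse strand) shared an interval of 380 kb with 13 other protein-coding genes, whereas Nhlh2 (ENSMUSG00000048540, chromosome 3, 102010076 to 102015492, forward strand) shared 255 kb with 3. With strong boundaries alone the order of the lengths turned, since Nhlh1 stayed at 380 kb with 13 others and Nhlh2 had 835 kb with 5. The boundaries around Nhlh1 were both strong. The left one, at 172000001 to 172005000, had a strength of 1.50 and lay 55.1 kb downstream of the gene's TSS, over the 3′ end of Vangl2, a gene of planar cell polarity. The right one, at 172380001 to 172385000, had a strength of 1.02 and lay over the 3′ end of Pigm, a gene of GPI anchor synthesis, 325 kb from the TSS. These were the 2 of the 14 flanking boundaries that held the 3′ end of a protein-coding gene, as 6.61% of all boundaries do.

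Around Nhlh2 the left boundary was strong and the right one weak. The left one, at 101835001 to 101840000, had a strength of 1.30 and overlapped exon sequence of Mab21l3, at 173 kb from the Nhlh2 TSS. The right one, at 102090001 to 102095000, had a strength of 0.349 and lay in an intron of Casq2, the calsequestrin gene of heart muscle, at 82.4 kb. The 3 other genes of this interval were Casq2, the transporter gene Slc22a15 and Mab21l3, with their TSSs 76.3, 85.6 and 161 kb from that of Nhlh2. Nearest to Nhlh1 were Copa, a coatomer gene (25.0 kb), Ncstn, which encodes the nicastrin subunit of the gamma-secretase that cleaves Notch receptors (25.2 kb), and Vangl2 (29.1 kb). No boundary lay between Nhlh1 and Ncstn.

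Some neighbours of Nhlh1 have a relative near Nhlh2, and boundaries fell differently among them. These pairs were picked after their positions were seen. Vangl2, Casq1 (calsequestrin of skeletal muscle) and Igsf8 all had their TSS in the interval of Nhlh1, at 29.1 to 204 kb, with 0 boundaries between. Of their relatives on chromosome 3, Casq2 alone shared the interval of Nhlh2 when all boundaries were counted. Vangl1, 195 kb downstream of Nhlh2, lay beyond the weak boundary in Casq2. With strong boundaries alone, Vangl1 shared the interval of Nhlh2 too. Igsf3, 633 kb upstream, was parted from Nhlh2 by 3 strong boundaries, the strongest of 1.79.

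**Figure D2:**
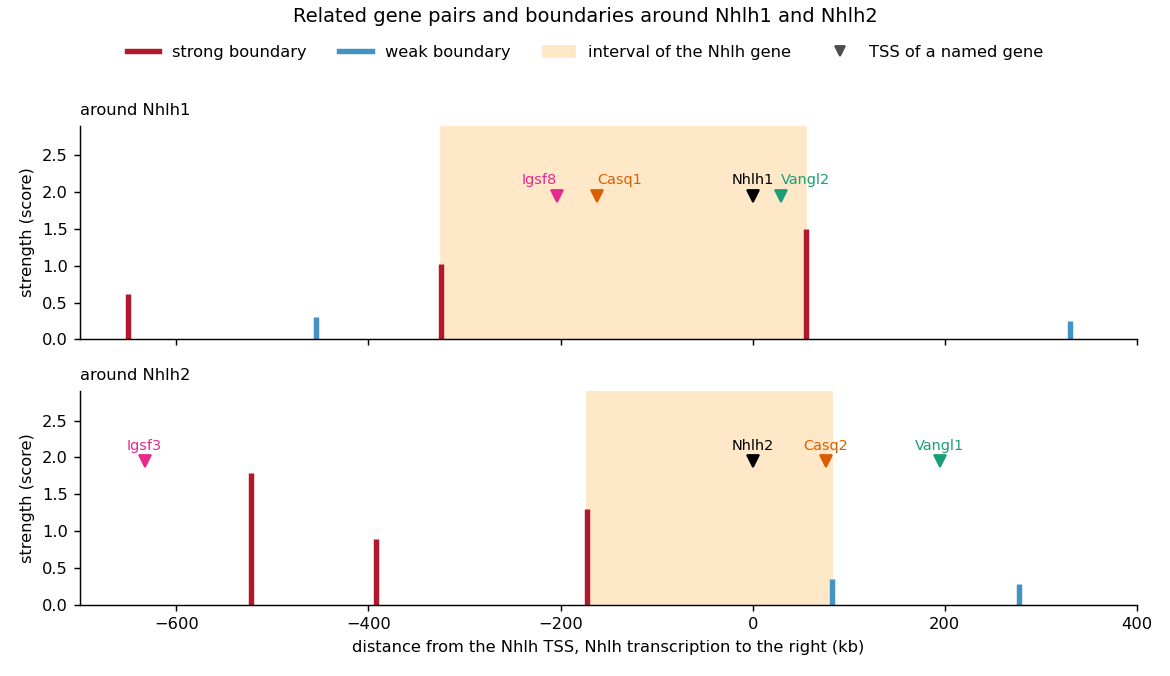
Boundaries and related genes around Nhlh1 and Nhlh2, with distance from the Nhlh TSS in kb along the horizontal axis (Nhlh transcription to the right) and boundary strength as line height. Triangles mark TSSs, and each pair of related genes has its own colour. Vangl2, Casq1 and Igsf8 lie in the shaded interval of Nhlh1. Of their relatives Casq2 alone lies in that of Nhlh2, and Vangl1 lies past its weak right boundary.

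The promoters of both Nhlh genes were poor in CpG. The RefSeq promoter table (GRCm38.p6, from 250 bases before to 50 bases after the start) held 6 of the 7 genes, all but Hes1. The ratio of observed to expected CpG was 0.0840 for Nhlh1 and 0.143 for Nhlh2, against a median of 0.387 over 32619 promoters. It was 0.891 for Neurog1, 0.837 for Neurod1, 1.04 for Hes5, and 0.530 and 0.663 for the 2 entries of Hes6. The promoters of the Nhlh pair and of Hes5 are printed as the lowest and the highest of these ratios. Capitals mark E-boxes of the forms CAGATG and CAGCTG on either strand for Nhlh1 and Nhlh2, and CG for Hes5.
Nhlh1, reverse strand, chr1:172057547-172057846: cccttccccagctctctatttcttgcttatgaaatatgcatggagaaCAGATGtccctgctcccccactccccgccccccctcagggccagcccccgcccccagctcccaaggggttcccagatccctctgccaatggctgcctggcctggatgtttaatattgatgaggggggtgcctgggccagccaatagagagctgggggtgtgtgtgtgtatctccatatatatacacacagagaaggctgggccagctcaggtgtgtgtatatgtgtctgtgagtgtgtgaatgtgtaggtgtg
Nhlh2, forward strand, chr3:102009895-102010194: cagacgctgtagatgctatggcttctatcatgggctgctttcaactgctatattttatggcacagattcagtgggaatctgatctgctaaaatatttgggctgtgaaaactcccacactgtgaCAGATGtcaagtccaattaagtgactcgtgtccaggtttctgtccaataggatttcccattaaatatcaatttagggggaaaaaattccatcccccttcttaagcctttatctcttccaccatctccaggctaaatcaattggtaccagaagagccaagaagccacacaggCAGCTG
Hes5, forward strand, chr4:154960673-154960972: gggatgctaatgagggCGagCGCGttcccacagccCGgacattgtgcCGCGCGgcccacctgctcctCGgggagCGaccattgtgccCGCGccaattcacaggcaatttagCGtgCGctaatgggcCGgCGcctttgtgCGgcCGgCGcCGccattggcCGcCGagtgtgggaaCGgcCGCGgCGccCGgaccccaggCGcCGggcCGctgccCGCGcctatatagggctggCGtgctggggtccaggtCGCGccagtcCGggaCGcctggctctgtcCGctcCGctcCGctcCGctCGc

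The form CAGATG occurred once in the promoter of Nhlh1 and once in that of Nhlh2, and 17.1% of all promoters hold it. The form CAGCTG occurred once in that of Nhlh2 and once in each Hes6 entry, and 16.4% of all promoters hold it. Neither form was in the promoters of Neurog1, Neurod1 and Hes5. Other E-box forms were not searched for. The form CAGGTG, for example, can be read in the printed promoter of Nhlh1 and, as CACCTG, in that of Hes5. The N-box CACNAG, a site form of Hes repressors, was in those of Neurod1 and Nhlh2 and in 1 Hes6 entry (42.5% of all promoters). A further Hes site form, CACGNG, was in those of Neurog1, Neurod1 and Nhlh2 and in the other Hes6 entry (27.7%). At Neurod1 and at Nhlh2 the CACNAG match is also a CACGNG match, as the forms overlap. Hes5 had none of the 4 forms in this window. A match is a description of the letters, and no factor's binding was measured.

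Among the Hes genes, Hes1 had the widest interval. The gene (ENSMUSG00000022528, chromosome 16, 30064384 to 30067796, forward strand) lay 258 kb from its nearest boundary, and 93.5% of protein-coding genes lay nearer to theirs. Its interval of 625 kb was longer than that of 87.2% of protein-coding genes. With strong boundaries alone the interval of Hes6 was the wider one, at 940 kb against 745 kb for Hes1, and with boundaries of 0.983 or more these were 1285 and 745 kb. The interval held 17 annotated genes, of which 4 were protein-coding and 8 were long intergenic noncoding RNA genes. The 3 other protein-coding genes were Cpn2 (a carboxypeptidase subunit), Lrrc15 and Gp5 (a platelet glycoprotein), all at its right end, 203 to 246 kb from the Hes1 TSS. On the left, from Hes1 to the weak boundary at 29695001 to 29700000 (strength 0.339, 367 kb from the TSS), there was no other protein-coding TSS. The mitochondrial fusion gene Opa1 was the nearest protein-coding gene beyond it, at 485 kb from Hes1. The right boundary, at 30320001 to 30325000, was strong (1.11) and overlapped exon sequence of Atp13a3, a gene of a cation-transporting ATPase.

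Hes5 lay between stronger boundaries than nearly all genes. The gene (ENSMUSG00000048001, chromosome 4, 154960923 to 154962371, forward strand) sat near the middle of an interval of 250 kb, 128 kb from the left and 122 kb from the right boundary. The left boundary, at 154830001 to 154835000, had a strength of 2.39, above 98.9% of all boundaries, and lay 4.96 kb from the TSS of Ttc34. The right one, at 155080001 to 155085000, had a strength of 1.65 and overlapped exon sequence of Rer1, a gene of protein sorting between Golgi and endoplasmic reticulum, whose TSS was 3.88 kb away. Of the 21538 protein-coding genes with a boundary on both sides, 38 had a weaker flank of at least 1.65, and 8 of these 38 are the genes of this interval itself. The nearest TSSs downstream of that of Hes5 were those of Pank4 (3.20 kb) and Plch2, a phospholipase C gene (95.9 kb). The nearest upstream were those of Tnfrsf14, a tumour necrosis factor receptor family gene (32.4 kb), and Fam213b (61.8 kb). GC content was 52.4% in this interval, above 99.3% of intervals, and the gene lay 1.55 Mb from the end of the chromosome; their part in the strengths was not tested.

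**Figure D3:**
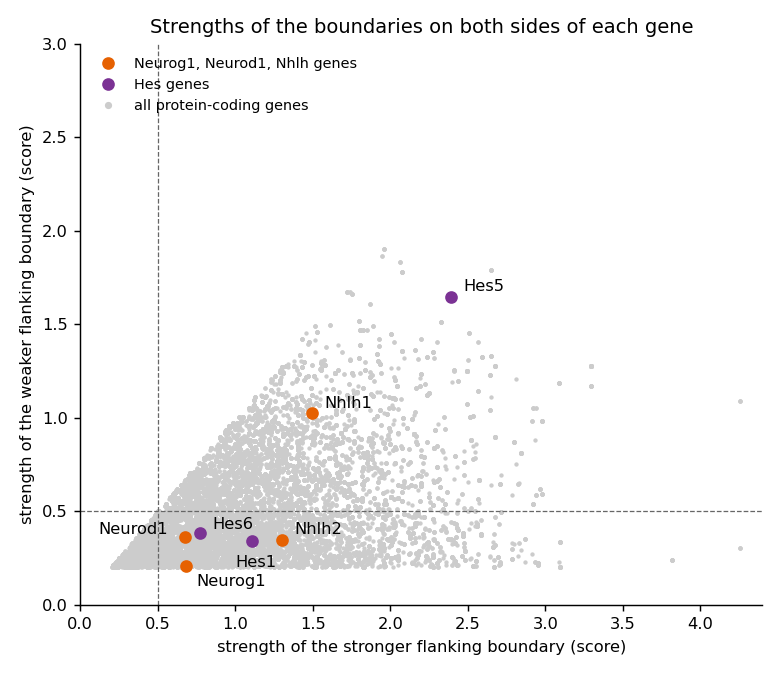
Strength of the stronger flanking boundary (horizontal axis) against that of the weaker one (vertical axis), both as deposited scores, for the 7 genes and for all protein-coding genes in grey. Dashed lines mark the strong class at 0.5; Hes5 (2.39 and 1.65) and Nhlh1 (1.50 and 1.02) lie above the horizontal line and the other 5 genes below it.

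Hes6, the member of the family that opposes Hes1, shared its interval with 10 other protein-coding genes. The gene (ENSMUSG00000067071) spans chromosome 1, 91411483 to 91414038, on the reverse strand, in an interval of 410 kb. The nearest TSSs downstream were those of Ilkap, a phosphatase gene (15.2 kb), and Erfe (47.6 kb). The nearest upstream were those of Per2, a gene of the circadian clock (45.3 kb), and Traf3ip1, a gene of transport in cilia (80.6 kb). The left boundary, at 91160001 to 91165000, was weak (0.385) and overlapped exon sequence of Rbm44, 252 kb from the Hes6 TSS and 17.3 kb from that of Ramp1, a gene of a receptor partner protein. The right one, at 91570001 to 91575000, was strong (0.771), overlapped no gene and lay 158 kb upstream of Hes6, with Asb1 as the gene of the nearest TSS (32.0 kb). The next protein-coding gene past it was Twist2, at 387 kb from Hes6 and beyond a further, weak boundary (0.342) at 328 kb. Twist2 also encodes a bHLH factor and was named after its position was seen.

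The order of the 7 genes by distance to the nearest boundary was Neurog1, Neurod1, Nhlh1, Nhlh2, Hes5, Hes6 and Hes1. The first 4 lay 30.3 to 82.4 kb away and the 3 Hes genes 122 to 258 kb away, without overlap when all boundaries were counted. With strong boundaries alone the groups overlapped, since Nhlh2 was at 173 kb, past Hes5 (122 kb) and Hes6 (158 kb). With boundaries of 0.983 or more, Neurog1 (480 kb) and Neurod1 (806 kb) were past Hes1 (258 kb). With all boundaries, the Hes genes were farther from their nearest boundary than 78.2 to 93.5% of protein-coding genes. The first 4 were farther than 27.2 to 63.2%. Interval lengths overlapped, with 90 to 380 kb for the first 4 genes and 250 to 625 kb for the Hes genes. The nearest boundary lay upstream of the TSS at Neurog1, Neurod1 and Hes6 and downstream at the other 4 genes.

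**Figure D4:**
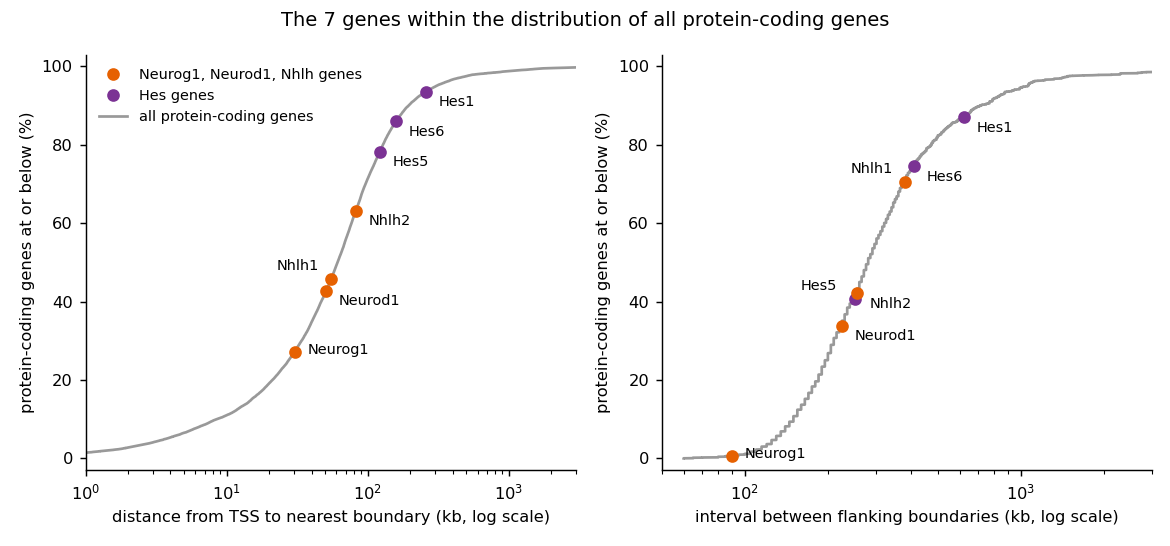
Cumulative share of protein-coding genes (vertical axis, percent) by distance from TSS to nearest boundary (left) and by interval length (right), both in kb on a log scale. Points are the 7 genes; the 3 Hes genes lie above the other 4 on the left, at 122 to 258 kb, and Neurog1 lies at the lower end on the right, at 90 kb.

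The strongest boundaries were not always the near ones. Within 1 Mb of the TSS on either side there were 5 boundaries at Hes1 and 10 each at Neurog1 and Nhlh2. The strongest of them was a flanking boundary of the gene at Nhlh1 (1.50) and Hes5 (2.39). At the other 5 genes it stood 480 to 806 kb from the TSS, with strengths of 1.59 to 2.20. When boundaries were limited to the 1842 with a strength of 0.983 or more, the intervals of Nhlh1 and Hes5 kept their 380 and 250 kb, and 6.30% of protein-coding genes have both flanks among those 1842. Under the same limit the interval of Neurod1 was 2520 kb.

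Base composition varied across the 7 intervals. GC content was 39.9% around Neurod1 and 44.7 to 52.4% around the other 6 genes, with a median of 42.6% over all 7347 intervals. DpnII sites, the cutting points of the assay, numbered 2.20 per kb around Neurog1 and 2.38 to 2.55 per kb around the other 6, with a median of 2.46 over all intervals. The density around Neurog1 was at a percentile of 5.64 among all intervals, and its part in the strength of the right boundary was not tested. Unknown bases made up 0% of each interval. Protein-coding genes numbered 0.640 per 100 kb around Hes1 and 3.68 around Nhlh1, with a median of 0.625 over all intervals, each counted once. Counted per gene, an interval held a median of 4 protein-coding genes for the 7 genes and 6 for all protein-coding genes. CTCF core motif matches within the intervals numbered 6 each for Nhlh1 and Hes5, 4 for Hes6, 3 each for Nhlh2 and Hes1, and 1 each for Neurog1 and Neurod1. Per 100 kb this was 2.40 for Hes5, 1.58 for Nhlh1, 1.18 for Nhlh2 and 1.11 for Neurog1. It was 0.976 for Hes6, 0.480 for Hes1 and 0.444 for Neurod1, with a median of 0.455 over all intervals. The medians over all intervals count each interval once, whereas the 7 were picked as genes. Medians per gene are not given here for GC content, DpnII sites or CTCF matches.

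In 5 lists of related bHLH and Notch pathway genes, 11 of 63 were at boundaries (17.5%, against 13.0% of all protein-coding genes). Without the added 10 kb this order turned, with 1 of 63 against 3.45% of all protein-coding genes. Among 22 other bHLH genes, some of them of non-neuronal lineages, 2 were, Bhlhe23 at a strong boundary (1.30) and Ascl2, a gene known from trophoblast and intestinal stem cells, at a weak one (0.206). Among 9 other Hes, Hey and related repressor genes, Hes3 (0.618) and Hes7 (weak, 0.451) were. Hes7 belongs to the segmentation clock of the embryo. Among 7 genes of E proteins and Id inhibitors, 2 were, the E protein gene Tcf4 (0.559) and Id2 (1.15), whose product binds E proteins and keeps them from DNA.

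Of the Notch pathway itself, 3 of 19 genes were at boundaries. Jag1, a Notch ligand gene, had its TSS 0.856 kb from the midpoint of a strong boundary (0.595), and it was the only gene of the 5 lists with its TSS inside a 5 kb boundary interval. The ligand gene Dll1 lay 5.63 kb from a weak boundary (0.384), and the receptor gene Notch4 11.8 kb from a strong one (1.33). Of 6 gamma-secretase genes, Psen2 (1.46) and Psenen (0.578) were at strong boundaries. Median distances to the nearest boundary were 65.7 kb for the other bHLH genes, 26.4 kb for the other Hes and Hey genes, 68.8 kb for E proteins and Id, 75.5 kb for the Notch pathway and 44.2 kb for gamma-secretase. Over all protein-coding genes the median was 61.1 kb. The 3 Hes genes above, at 122 to 258 kb, were, with all boundaries counted, farther from a boundary than each of the 9 other Hes, Hey and related genes, which lay 5.84 to 102 kb away. Among these 9, Hes7, Hey1, Helt and Bhlhe41 had a weak nearest boundary, and distances of the 9 to strong boundaries alone are not given here. The 2 lists were drawn up with results of these data known, and the difference was not tested.

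**Figure D5:**
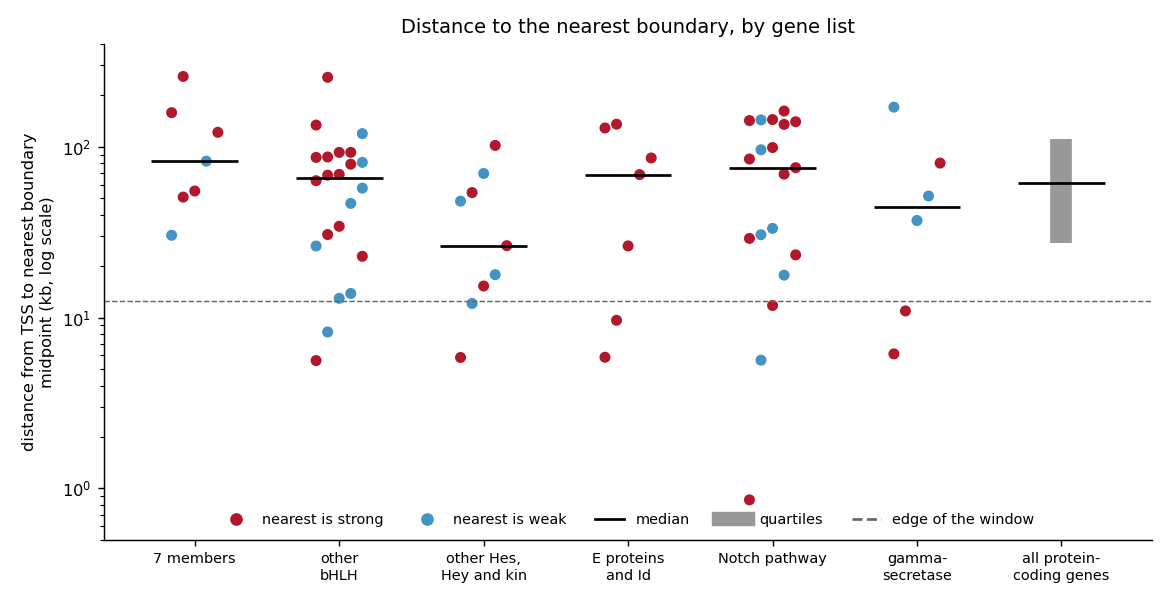
Distance from TSS to the nearest boundary midpoint (kb, log scale) for the 7 genes, the 5 related lists and, as median and quartiles, all protein-coding genes. Red points have a strong and blue points a weak nearest boundary, black lines are medians, and the dashed line is the edge of the window; 0 of 7 and 11 of 63 points lie below it.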

How the data were processed

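In situ Hi-C of the 2 replicates was mapped to GRCm38, contacts were combined, and boundaries were called on the combined matrix, per the series design text. The deposited list gives 7367 boundaries of 5000 bp, each with a class and a strength, a score deposited by the authors. Checked on the list, the class changes at 0.5. The sources used here do not state the caller, its window or the read filters.

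From this list and the GENCODE M21 genes of the same build, the distance from each TSS to boundary midpoints, the flanking boundaries, the interval between their midpoints and the genes with a TSS in it were computed with Python 3.11.15 and pandas 2.3.3. Percentiles are shares of protein-coding genes, intervals or boundaries with lower values, ties counted at 0.5. The code was tested on simulated positions and sequence. CTCF matches were searched on the GRCm38 sequence of another strain, C57BL/6J. No statistical test was run, since replicates cannot be separated and genes are not replicates.

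The 7 genes, the related lists and the alternatives were chosen with earlier results of these data known. Named genes were the 7, the genes sharing an interval (all if 6 or fewer, else the 2 nearest on each side), the genes nearest to the flanking boundaries and list members at boundaries. Genes that overlap a boundary or motif match, the relatives around the Nhlh genes and Twist2 fall outside it and were named after their positions were seen.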

Additional observations from a re-analysis of the deposited data

How the results depend on the processing

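The absence of boundaries at the 7 TSSs held with an added window of 25 kb, where 25.0% of all protein-coding genes were counted. It also held with any annotated transcript start, for which the share of all protein-coding genes is not given here. With 50 kb, 2 of 7 were counted, beside 44.0% of all protein-coding genes. No added window and strong boundaries alone could give only 0 of 7, since each narrows a search that found none. The related lists had 1, 21 and 30 of 63 genes at boundaries with added windows of 0, 25 and 50 kb (3.45, 25.0 and 44.0% of all protein-coding genes), and 8 with strong boundaries alone (8.39%). The median distance to the nearest boundary was 122 kb with strong boundaries alone and 258 kb with those of 0.983 or more, 79.9 kb to the boundary edge and 82.3 kb from any transcript start. The median interval was 545 kb with strong boundaries alone (480 kb for all protein-coding genes) and 835 kb with those of 0.983 or more. Dropping boundaries can only lengthen the distances and intervals of a gene. Apart from the 480 kb, medians over all protein-coding genes under these limits are not given here. The median number of other genes in an interval, 3, was 10 with all annotated genes, 5 with strong boundaries alone and 4 with genes that overlap the interval. With 25 kb on each side, 6 of 14 flanking boundaries had a CTCF match (39.1% of all boundaries). No paired analysis was possible because the replicates were combined before boundaries were called, and none could be left out. Depth is unknown, so a boundary that is not listed may be one that this map could not show.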
